A study of Sus scrofa with 10 samples.

Results

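NEUROD1, NEUROD2, NEUROD4 and NEUROD6 are the 4 genes of the NEUROD family of neuronal basic helix-loop-helix (bHLH) transcription factors, and they were taken by symbol from the 22452 genes counted in cells of the developing and adult pig brain. All 4 symbols were found. The 28229 cells came from 10 libraries prepared from the medial entorhinal cortex (MEC), a cortical region that takes part in memory and navigation, and the labels name no modified allele and no drug. Whole cells were taken from crossbred pig fetuses at embryonic day 50 (E50, 1 library of 3 pooled brains), E60 (3 libraries of 1, 1 and 2 brains) and E70 (3 libraries of 2, 1 and 1 brains) and from the adult brain (1 library of 1 brain), and nuclei were taken at E70 and from the adult brain (1 library of 1 brain each). The libraries are named by stage and number, for example E60_3, and the libraries of nuclei are E70_nc and Adult_nc. The study's text is not uniform on the age of the animals that the labels call adult. Replicate libraries existed only for E60 and E70 whole cells.

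NEUROD proteins pair with E proteins such as TCF3, TCF4 and TCF12 and bind the E-box, a short DNA motif. They act downstream of proneural factors such as NEUROG2, and are known for driving progenitors out of division and into neuronal differentiation. In the developing cortex, EOMES-positive intermediate progenitors (IPs) give rise to excitatory neurons. NEUROD1 and NEUROD4 are known from progenitors and newborn neurons, and NEUROD1 also from cerebellar granule cells, the retina and the pineal gland. NEUROD2 and NEUROD6 are known from postmitotic excitatory neurons of the cortex.

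The 4 genes lie apart in the genome and each has 2 exons in RefSeq. In Sscrofa11.1, the assembly to which the authors mapped, NEUROD1 is at chr15:87175629-87179953 on the minus strand, NEUROD2 at chr12:22709473-22713785, NEUROD4 at chr5:20046864-20057380 and NEUROD6 at chr18:41757356-41763837, the last 3 on the plus strand. The coding sequence most alike among the 4 genes is a stretch of 171 bases in exon 2, which encodes the bHLH domain. It is shown to describe how alike the members are. The libraries were made with 3′ kits, and which part of each transcript the reads covered was not examined. Capitals mark the 96 bases that are the same in all 4 genes, each read 5′ to 3′ on the coding strand, from chr15:87177661-87177831 (NEUROD1), chr12:22711329-22711499 (NEUROD2), chr5:20054556-20054726 (NEUROD4) and chr18:41762308-41762478 (NEUROD6).
NEUROD1: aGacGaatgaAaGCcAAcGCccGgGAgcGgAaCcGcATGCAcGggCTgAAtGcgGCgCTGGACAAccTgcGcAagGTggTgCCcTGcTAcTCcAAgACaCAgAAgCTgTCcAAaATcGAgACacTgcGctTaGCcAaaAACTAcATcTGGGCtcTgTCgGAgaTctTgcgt
NEUROD2: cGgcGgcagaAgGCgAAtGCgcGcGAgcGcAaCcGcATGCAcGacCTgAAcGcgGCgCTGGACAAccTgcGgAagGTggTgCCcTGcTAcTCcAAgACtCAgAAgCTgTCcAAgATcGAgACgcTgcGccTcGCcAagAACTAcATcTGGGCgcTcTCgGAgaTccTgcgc
NEUROD4: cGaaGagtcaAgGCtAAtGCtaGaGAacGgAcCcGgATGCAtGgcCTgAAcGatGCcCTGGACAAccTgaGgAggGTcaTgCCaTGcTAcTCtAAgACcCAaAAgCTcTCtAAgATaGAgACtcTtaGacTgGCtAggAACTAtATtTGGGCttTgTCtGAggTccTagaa
NEUROD6: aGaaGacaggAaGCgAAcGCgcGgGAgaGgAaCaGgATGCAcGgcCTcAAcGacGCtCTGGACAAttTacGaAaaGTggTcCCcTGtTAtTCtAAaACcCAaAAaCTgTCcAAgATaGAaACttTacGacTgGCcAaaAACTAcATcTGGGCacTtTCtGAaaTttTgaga
In this stretch NEUROD1 and NEUROD2 shared 85.4% of the bases, NEUROD1 and NEUROD6 74.3%, NEUROD2 and NEUROD6 73.1%, NEUROD2 and NEUROD4 71.9%, NEUROD1 and NEUROD4 70.2%, and NEUROD4 and NEUROD6 67.8%. The annotated transcripts of any 2 members had no run of 31 bases in common.

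The 250 bases before the annotated start are printed for NEUROD2 (chr12:22709223-22709472, plus strand) and NEUROD6 (chr18:41757106-41757355, plus strand), since the levels of these genes followed each other most closely over the clusters described further on. Capitals mark the E-box CANNTG, which reads the same on both strands.
NEUROD2: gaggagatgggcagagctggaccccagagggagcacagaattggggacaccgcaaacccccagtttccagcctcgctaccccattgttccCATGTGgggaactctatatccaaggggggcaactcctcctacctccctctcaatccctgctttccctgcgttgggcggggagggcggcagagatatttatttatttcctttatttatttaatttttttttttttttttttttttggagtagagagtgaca
NEUROD6: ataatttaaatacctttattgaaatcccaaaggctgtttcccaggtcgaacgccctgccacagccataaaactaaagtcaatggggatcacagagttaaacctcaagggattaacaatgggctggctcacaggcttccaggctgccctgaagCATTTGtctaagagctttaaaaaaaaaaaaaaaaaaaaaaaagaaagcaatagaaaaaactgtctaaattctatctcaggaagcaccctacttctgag
Each of these windows held 1 E-box, 160 bases before the start of NEUROD2 and 98 bases before that of NEUROD6. The same window held 4 E-boxes at NEUROD1 and 2 at NEUROD4, against 61.9% of 19556 protein-coding genes with at least 1. The form CAGATG (or CATCTG on the other strand, and itself an E-box) was found once at NEUROD1 and in 12.5% of all windows, and CAGCTG was found at both E-boxes of NEUROD4 and in 13.6% of all windows. TATAAA (or TTTATA) was found at none of the 4 genes and in 9.77% of all windows. These matches describe the sequence only.

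The files hold UMI counts before any normalization, with totals from 2336865 (Adult_nc) to 55755512 (E50_1) per library and medians from 690 to 9403 UMIs per cell. Levels are given as CPM, that is, a gene's UMIs scaled to 1e+06 UMIs of the library, class or cluster in question. Cells were clustered without the members and without the markers, and clusters are called like a cell type from the markers (for example IP-like). Of 53 clusters, 5 stayed unnamed. The make-up of the tissue touches the results. The cortical marker EMX1 reached 40.6 CPM in E50_1, 17.2 CPM in E60_3 and 8.39 to 13.6 CPM in the E70 whole cells. It was at only 0.482 and 0.511 CPM in E60_1 and E60_2, where the midbrain and hindbrain gene EN2 stood at 37.4 and 14.0 CPM. E60_1 and E60_2 held 1 excitatory-like cell each. EN2 was also at 24.1 CPM in E50_1, so that E50_1 held transcripts of both kinds, but at 0.735 CPM or less in E60_3 and the E70 whole cells. PAX7, another midbrain and hindbrain gene, was at 20.1 CPM in E50_1. It was at 3.74, 30.0 and 4.48 CPM in E60_1, E60_2 and E60_3 and at 30.2, 27.9 and 5.06 CPM in E70_1, E70_2 and E70_3. The adult whole cell library held 0 excitatory-like and 0 IP-like cells, and of the adult nuclei 75.5% were oligodendroglia-like and 4.43% excitatory-like, so that the adult totals below do not show the level in adult neurons. In all, 449 of 27777 barcodes were found in over 1 library, and no pair of libraries shared over 57.

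NEUROD6, a gene of postmitotic cortical neurons, stood at 265 CPM in E50_1, at 2.91, 0.275 and 80.2 CPM in E60_1, E60_2 and E60_3, and at 22.3, 67.9 and 205 CPM in E70_1, E70_2 and E70_3. It was at 91.6 CPM in the E70 nuclei, 0.688 CPM in the adult cells and 5.14 CPM in the adult nuclei. NEUROD2, which is known to act in the maturation of the same neurons, stood at 63.2 CPM in E50_1, at 0.688, 0.157 and 30.0 CPM in the E60 libraries and at 16.5, 39.4 and 31.8 CPM in the E70 libraries. Its level was 9.39 CPM in the E70 nuclei, 0.963 CPM in the adult cells and 1.28 CPM in the adult nuclei. For both genes E60_1 and E60_2 were the lowest of the fetal libraries, and the 3 E60 libraries lay far apart.

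NEUROD1, which is known to start neuronal differentiation, was at 35.9 CPM in E50_1, at 18.5, 3.73 and 16.9 CPM in the E60 libraries and at 37.9, 4.03 and 26.6 CPM in the E70 libraries. It was at 4.86 CPM in the E70 nuclei, and the adult cells and nuclei held 1 UMI each. NEUROD4, a gene of progenitors and newborn neurons, was at 7.91 CPM in E50_1, at 0.115, 1.26 and 10.8 CPM in the E60 libraries, at 11.6, 5.32 and 7.50 CPM in the E70 libraries and at 0.971 CPM in the E70 nuclei. The adult nuclei held 1 UMI of NEUROD4 and the adult cells none, which allows up to 0.413 CPM. Unlike NEUROD2 and NEUROD6, NEUROD1 was as high in E60_1 as in E60_3.

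**Figure D1:**
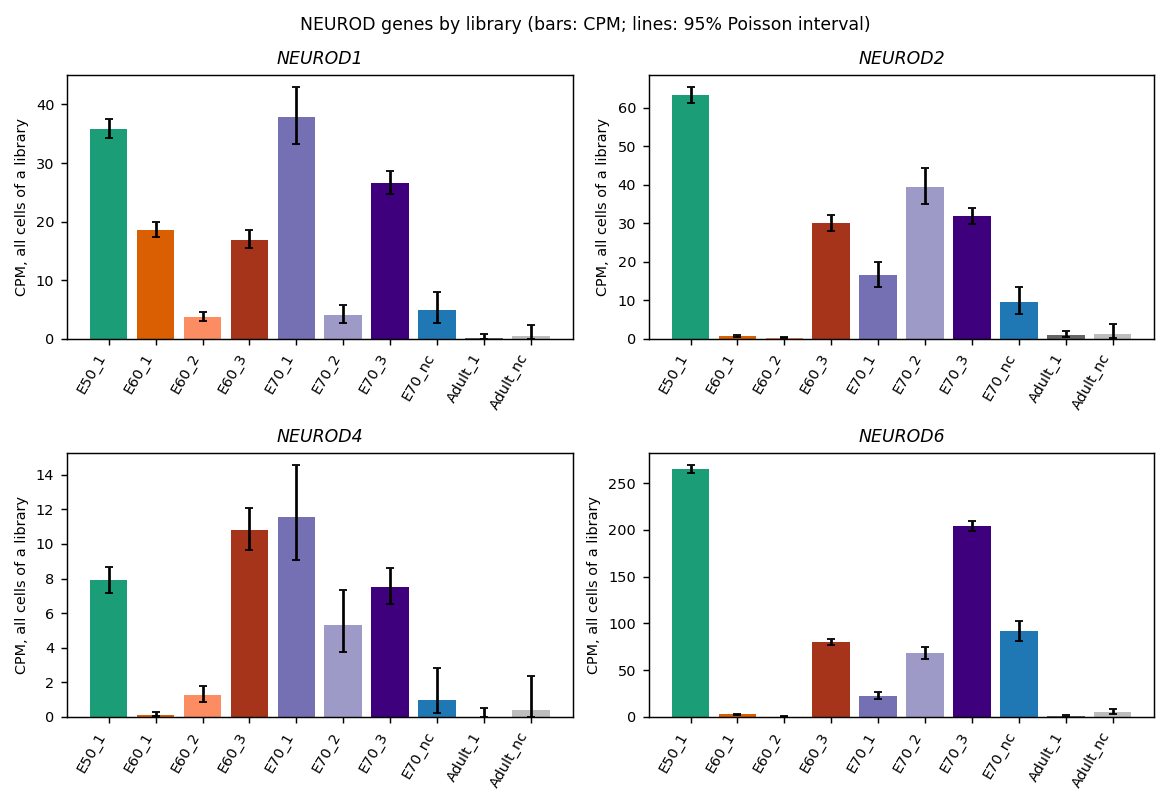
CPM of each NEUROD gene over all cells of each of the 10 libraries (bars), with exact 95% Poisson intervals that cover counting error only (lines). NEUROD2 and NEUROD6 were near 0 in E60_1 and E60_2, in which NEUROD1 stood at 18.5 and 3.73 CPM.

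No NEUROD gene passed the test between E70 and E60 whole cells over all cells of a library. NEUROD1 averaged 13.1 ± 8.11 CPM at E60 and 22.8 ± 17.2 CPM at E70, NEUROD2 10.3 ± 17.1 and 29.2 ± 11.7 CPM, NEUROD4 4.06 ± 5.87 and 8.13 ± 3.17 CPM, and NEUROD6 27.8 ± 45.4 and 98.3 ± 94.8 CPM (mean ± SD, n = 3 libraries each). The E60 and E70 values overlapped for every member. By edgeR's quasi-likelihood test the log2 fold changes were 0.62 ± 0.77 for NEUROD1, 1.54 ± 1.41 for NEUROD2, 0.94 ± 1.15 for NEUROD4 and 1.86 ± 1.55 for NEUROD6 (± SE), with Benjamini-Hochberg adjusted p-values of 0.589, 0.463, 0.582 and 0.419. Of 16743 genes tested by edgeR 0 passed (0%), with 4916 at an unadjusted p under 0.05, while DESeq2 called 2907 genes. Exact two-sided permutation tests of the CPM gave p = 0.4, 0.2, 0.3 and 0.3 for NEUROD1, NEUROD2, NEUROD4 and NEUROD6, where 3 against 3 libraries cannot go below 0.1.

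These values depended on single libraries. Without both E60_1 and E60_2, which leaves 1 E60 library and was tried after the data were seen, the log2 fold change was 0.40 for NEUROD1 and 0.33 for NEUROD6 and turned to -0.01 for NEUROD2 and -0.43 for NEUROD4, and edgeR called no member. Without E60_3 it was 5.77 for NEUROD2, 3.24 for NEUROD4 and 5.68 for NEUROD6, with edgeR adjusted p-values of 0.0149, 0.0449 and 0.0277. The libraries E60_3 and E70_3 were sequenced together, and between them the difference was 9.67 CPM for NEUROD1, 1.86 CPM for NEUROD2, -3.31 CPM for NEUROD4 and 124 CPM for NEUROD6. In the pair E60_1 and E70_1, also sequenced together, it was 19.3, 15.8, 11.4 and 19.4 CPM. In such totals, fewer cells of a type and less RNA per cell cannot be told apart, so the levels within cell classes are given next.

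Over all libraries, 91.9% of the NEUROD6 UMIs and 81.2% of the NEUROD2 UMIs were found in the 5550 excitatory-like cells, which made up 19.7% of all cells. Of the NEUROD4 UMIs, 50.2% were found in the 1029 IP-like cells (3.65% of all cells) and 17.7% in the 281 photoreceptor or pineal-like cells (0.995%). NEUROD1 was spread more widely, with 28.5% of its UMIs in granule-like cells, 25.6% in excitatory-like cells, 13.9% in unnamed clusters, 11.8% in IP-like cells and 9.84% in photoreceptor or pineal-like cells. By library the source of NEUROD1 differed. Granule-like cells held 39.2% of its UMIs in E50_1 and 55.8% in E60_1, excitatory-like cells held 59.0% in E60_3 and 64.3% of only 28 UMIs in E70_2, and photoreceptor or pineal-like cells held 51.0% in E70_1 and 29.3% in E70_3.

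**Figure D2:**
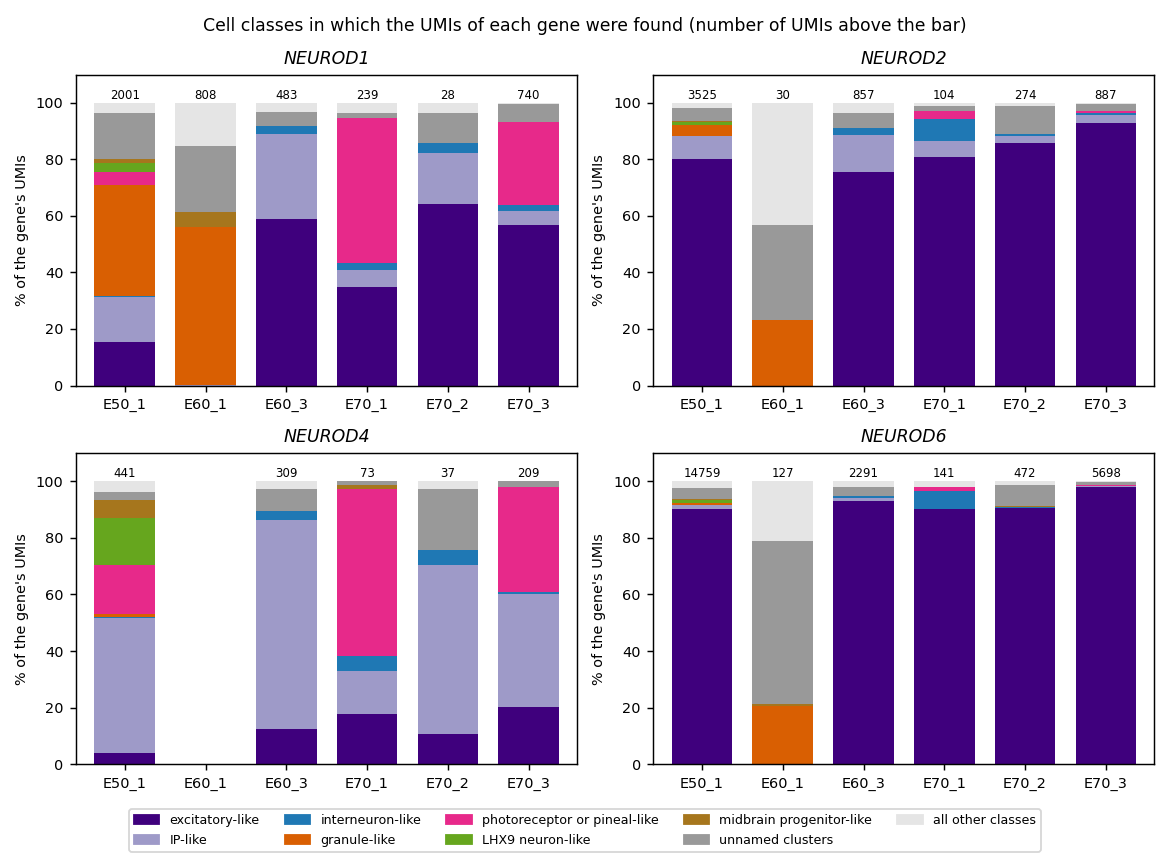
Percent of the UMIs of each NEUROD gene found in each cell class, for 6 whole cell libraries with at least 20 UMIs of the gene, with the number of UMIs above each bar. Excitatory-like cells held most NEUROD2 and NEUROD6 UMIs in every library shown but E60_1, while the largest source of NEUROD1 and NEUROD4 changed between libraries.

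Free RNA gives UMIs in cells that do not express a gene, and microglia-like cells, which should lack the NEUROD genes, serve as the background. In E50_1 they held 10.7 CPM of NEUROD1, 11.3 CPM of NEUROD2, 2.51 CPM of NEUROD4 and 45.2 CPM of NEUROD6. In E60_3 the values were 4.81, 11.8, 1.31 and 11.4 CPM. In the E70 whole cell libraries the highest value was 8.79 CPM (NEUROD6 in E70_2, 2 UMIs). This background was uneven. Cluster 35, which holds 239 of the 2638 microglia-like cells, also held DCX, a gene of young neurons, at 140 CPM, and 85 of the 112 NEUROD6 UMIs of the class. Without that cluster, a choice made after the data were seen, the E50_1 background was 3.09 CPM for NEUROD1, 3.09 CPM for NEUROD2, 0.772 CPM for NEUROD4 and 17.8 CPM for NEUROD6, and of the 26 NEUROD6 UMIs in E60_3 none was left.

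The NEUROD6 levels of E50_1 outside excitatory-like cells have to be read against both values. With a background of 45.2 CPM (35.4 to 57 CPM, 95% Poisson interval), granule-like cells (47.5 CPM) and IP-like cells (53.7 CPM) lay within its interval, and LHX9 neuron-like (34.4 CPM), interneuron-like (28.3 CPM, 5 UMIs), Purkinje-like (27.5 CPM) and photoreceptor or pineal-like cells (18.5 CPM) lay below it. With a background of 17.8 CPM (11.3 to 26.6 CPM), only photoreceptor or pineal-like cells, of the classes just named, lay within the interval. Other classes of E50_1 are left out of this comparison. At full depth 13.1% of its midbrain progenitor-like and 15.7% of its astrocyte and radial glia-like cells held a NEUROD6 UMI. The microglia-like share was 22.5%, or 17.0% without cluster 35. Whether the cells outside the excitatory-like class made NEUROD6 was not tested.

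Within excitatory-like cells NEUROD6 was at 846 CPM in E50_1, 213 CPM in E60_3, 56.8 CPM in E70_1, 137 CPM in E70_2, 408 CPM in E70_3, 125 CPM in the E70 nuclei and 37.1 CPM (8 UMIs) in the adult nuclei. E50_1 was the highest, and among the 3 E70 whole cell libraries the levels lay far apart, with no overlap of their counting intervals. NEUROD2 was at 180 CPM in E50_1, 64.5 CPM in E60_3, 37.6, 75.6 and 60.2 CPM in E70_1, E70_2 and E70_3, 12.6 CPM in the E70 nuclei and 13.9 CPM (3 UMIs) in the adult nuclei. E50_1 was again the highest, and E60_3 lay within the range of E70. No test can be made between E50 and the other stages, since E50 has 1 library. The clusters that held most of the class also differed, being clusters 1 and 0 in E50_1, clusters 0 and 8 in E60_3 and E70_1, clusters 0 and 1 in E70_2, clusters 8 and 1 in E70_3 and clusters 25 and 34 in the nuclei.

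NEUROD1 in excitatory-like cells was at 19.7 CPM in E50_1, 28.5 CPM in E60_3, 37.1, 5.79 and 30.8 CPM in E70_1, E70_2 and E70_3, and 5.39 CPM (12 UMIs) in the E70 nuclei. E70_2 was the lowest of the E70 whole cell libraries for this gene in all 3 classes compared here, with 14.0 CPM in its IP-like and 1.29 CPM in its interneuron-like cells, although its excitatory-like cells held the second highest level of NEUROD2 of all libraries. NEUROD4 in excitatory-like cells was at 1.08 CPM in E50_1, 3.80 CPM in E60_3 and 5.82, 1.29 and 3.07 CPM in the E70 whole cell libraries, against 27.3 CPM or more in the IP-like cells of the same libraries.

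In IP-like cells, NEUROD4 was at 52.9 CPM in E50_1, 61.2 CPM in E60_3 and 27.3, 61.7 and 68.1 CPM in E70_1, E70_2 and E70_3. In 4 of the 5 libraries the level lay between 52.9 and 68.1 CPM, and the lowest one rested on 11 UMIs in 29 cells. NEUROD1 was at 79.0 CPM in E50_1, 38.5 CPM in E60_3 and 37.2, 14.0 and 29.2 CPM in the E70 libraries. NEUROD2 was at 72.5 CPM in E50_1, 29.9 CPM in E60_3 and 14.9, 19.6 and 21.1 CPM in the E70 libraries. For both genes E50_1 lay above all other libraries. NEUROD6 was at 53.7 CPM in E50_1, where the background was 45.2 CPM, or 17.8 CPM without cluster 35, at 5.35 CPM in E60_3 and at 0 (up to 7.44 CPM), 2.80 and 4.05 CPM in the E70 libraries.

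Excitatory-like and IP-like cells were compared within the 5 libraries that held at least 20 cells of each, as the difference in log2(CPM + 1). NEUROD6 was higher in excitatory-like cells in 5 of 5 libraries by 5.28 ± 0.40 (mean ± SE), and NEUROD2 in 5 of 5 libraries by 1.41 ± 0.14. NEUROD4 was lower in 5 of 5 libraries, with a difference of -3.86 ± 0.49. For these 3 genes an exact sign-flip test over libraries (two-sided) gave p = 0.0625, the smallest that 5 libraries allow, and an adjusted p of 0.0833 over the 12 comparisons of this kind. For NEUROD1 the difference was -0.69 ± 0.38, higher in excitatory-like cells in 1 of 5 libraries, with an exact p of 0.188 and an adjusted p of 0.225. The values for NEUROD1 and NEUROD2 depended on which cells were called IP-like. Without the cluster of dividing IP-like cells they were -1.32 (exact sign-flip p = 0.0625) and 0.72, and with each library clustered on its own, which left 3 libraries, -1.74 and 0.53.

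A model fitted over all genes, edgeR with the library as a block, was added after the data were seen. It gave log2 fold changes between excitatory-like and IP-like cells of 4.97 ± 0.32 for NEUROD6, 1.38 ± 0.15 for NEUROD2 and -4.42 ± 0.35 for NEUROD4 (± SE), with adjusted p-values of 1.01e-06, 5.95e-05 and 4.55e-06. NEUROD1 differed by -0.74 ± 0.29 with an adjusted p of 0.0881. In this fit 3873 of 14927 genes passed (25.9%), a share that includes variable genes used to form the clusters, whereas the members were not used. Thus 3 of the 4 members were called, 2 of them higher and 1 lower in excitatory-like cells.

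Interneuron-like cells, which are GABAergic neurons, held little of any member outside E50_1. In the 7 libraries with at least 20 of these cells the highest levels were 45.3 CPM for NEUROD1 (8 UMIs in 27 cells of E50_1), 12.6 CPM for NEUROD2, 11.3 CPM for NEUROD4 (2 UMIs) and 28.3 CPM for NEUROD6 (5 UMIs). GAD2, a gene of GABAergic neurons, was also found in unnamed clusters 3 (178 CPM) and 19 (111 CPM), which are not part of this class. Cluster 3 held NEUROD1, NEUROD2, NEUROD4 and NEUROD6 at 25.9, 7.64, 0.551 and 32.8 CPM, and cluster 19 at 58.3, 4.55, 2.43 and 14.3 CPM. Excitatory-like cells were higher in 7 of 7 libraries for NEUROD2 (3.49 ± 0.44 in log2(CPM + 1)) and NEUROD6 (4.21 ± 0.55). Each had an exact sign-flip p of 0.0156, the smallest that 7 libraries allow, and an adjusted p of 0.0833. For NEUROD1 they were higher in 6 of 7 libraries (1.55 ± 0.48, exact p = 0.0312, adjusted p = 0.0833). NEUROD4 was higher in excitatory-like cells in 2 of 7 libraries, with a difference of -0.16 ± 0.50 and an exact sign-flip p of 0.812. In the adult nuclei both classes stood at 0 CPM, and the lowest difference was -2.57 in E50_1. By edgeR with the library as a block the first 3 genes passed, at log2 fold changes of 3.26, 4.79 and 1.6 and adjusted p-values of 6.28e-09, 5.76e-12 and 0.000312, where 9.62% of 14655 genes did.

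Between IP-like and interneuron-like cells NEUROD4 differed by 3.38 ± 0.65, NEUROD2 by 1.95 ± 0.56 and NEUROD1 by 1.82 ± 0.31 in log2(CPM + 1), higher in IP-like cells in 5 of 5 libraries each (exact sign-flip p = 0.0625, adjusted p = 0.0833). NEUROD6 differed by -0.94 ± 0.82 (exact p = 0.375, adjusted p = 0.409) and was higher in IP-like cells in 2 of 5 libraries. By edgeR with the library as a block NEUROD4, NEUROD2 and NEUROD1 passed (log2 fold changes of 3.85, 1.73 and 1.81, adjusted p-values of 5.39e-08, 0.000375 and 2.35e-05), as did 25.9% of 12294 genes.

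**Figure D3:**
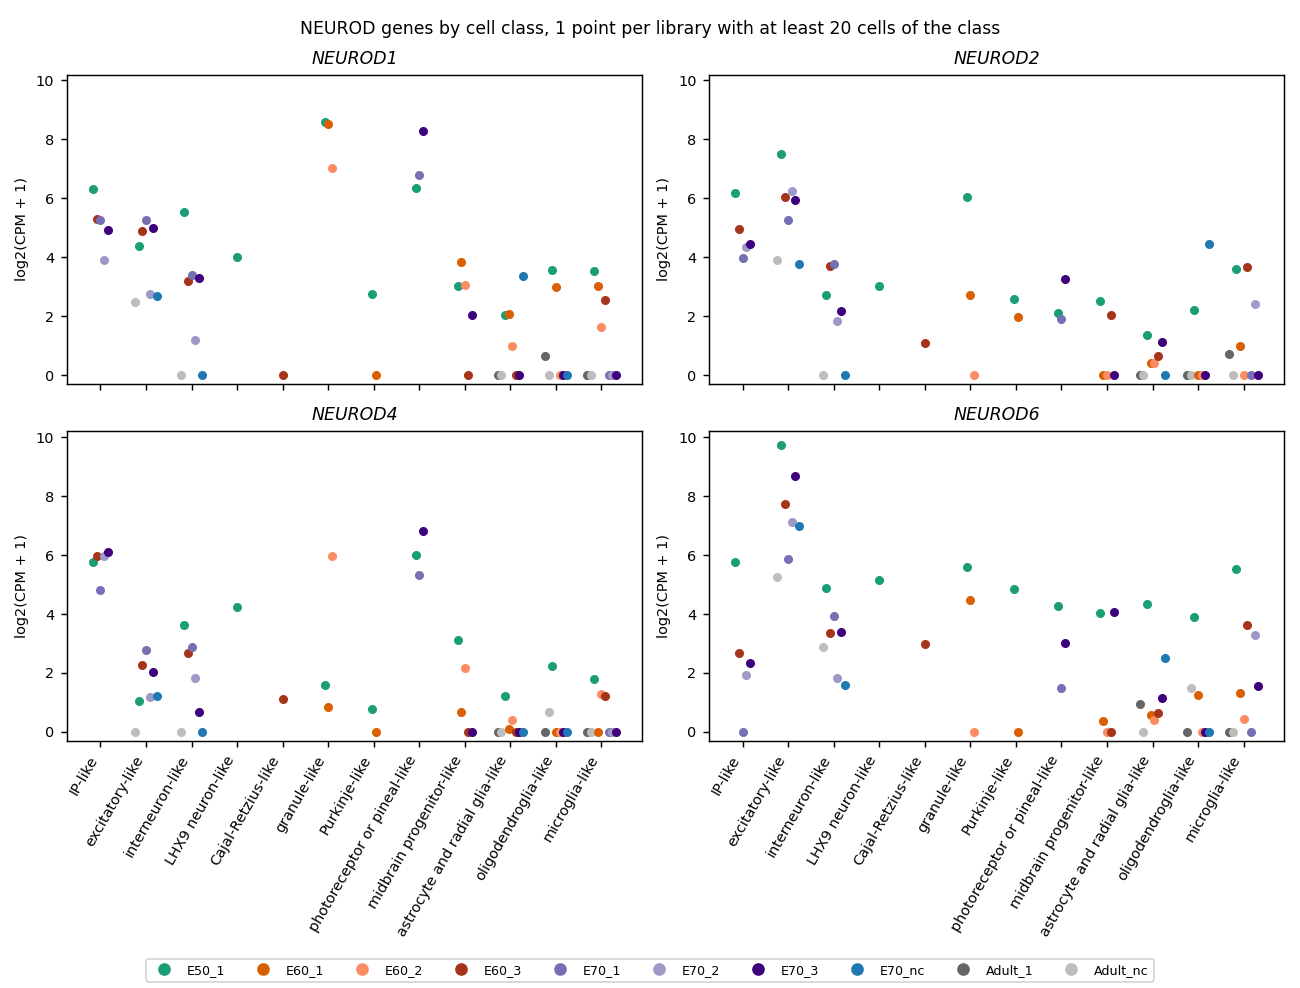
Level of each NEUROD gene as log2(CPM + 1) in each cell class, with 1 point for each library that held at least 20 cells of the class, coloured by library. NEUROD4 was high in IP-like and photoreceptor or pineal-like cells, NEUROD1 was highest in granule-like cells, and NEUROD6 was highest in excitatory-like cells.

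The IP-like and excitatory-like cells were made up of several clusters, in which the members peaked at different points. Cluster 28 held dividing IP-like cells (358 cells, TOP2A at 1057 CPM) and cluster 12 the other IP-like cells (671 cells, TOP2A at 21.0 CPM). They differed in more than TOP2A. Cluster 28 held SOX2, a marker of radial glia, at 341 CPM and EOMES at 82.4 CPM, against 98.5 and 183 CPM in cluster 12. The astrocyte and radial glia-like cluster 22 held SOX2 at 365 CPM and EOMES at 5.29 CPM. Whether cluster 28 also held dividing radial glia was not tested. NEUROD4 stood at 19.2, 35.5 and 16 CPM in the dividing cluster in E50_1, E60_3 and E70_3, and at 91.6, 86.7 and 133 CPM in cluster 12. NEUROD1 stood at 15.9, 9.67 and 4.37 CPM in the dividing cluster of these libraries and at 151, 67.0 and 60.3 CPM in cluster 12, and NEUROD2 at 9.84, 8.60 and 1.46 CPM and at 144, 51.0 and 45.6 CPM. All 3 genes were thus higher in the IP-like cells with little TOP2A in 3 of 3 libraries. These values have no test, since the clusters were drawn from the same cells.

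Cluster 8 was excitatory-like and came from E60_3 and the E70 whole cells, with 4 cells in E50_1. Here NEUROD1 was at 50.3 CPM in E60_3 and at 58.1, 6.95 and 33.4 CPM in E70_1, E70_2 and E70_3, and NEUROD6 at only 31, 6.45, 6.95 and 40.1 CPM. NEUROD4 was at 8.89, 12.9, 0 (0 UMIs) and 8.10 CPM, below its level in cluster 12 of the same library. In cluster 1, which is also excitatory-like, NEUROD6 was at 986 CPM in E50_1, 414 CPM in E60_3, 264 CPM in E70_2 and 693 CPM in E70_3, and NEUROD4 did not exceed 2.29 CPM. NEUROD6 was higher in cluster 1 than in cluster 8 in each of the 3 libraries that held both.

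Cluster 20, with the deep layer gene FEZF2 among its leading genes, held NEUROD6 at 782 CPM in E50_1, 392 CPM in E70_3 and 207 CPM in the E70 nuclei. Its NEUROD2 level was 108 CPM in E50_1 and 33.2 CPM in E70_3, and its NEUROD1 level was 4.37 and 9.61 CPM. Cluster 0 held NEUROD6 at 604, 222, 111 and 202 CPM in E50_1, E60_3, E70_2 and E70_3, which was below cluster 1 in these 4 libraries and above cluster 8 in the last 3. NEUROD2 varied less among the excitatory-like clusters. In E70_3 it was at 55.7, 71.6, 61.8 and 33.2 CPM in clusters 8, 0, 1 and 20, while NEUROD6 was at 40.1, 202, 693 and 392 CPM.

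**Figure D4:**
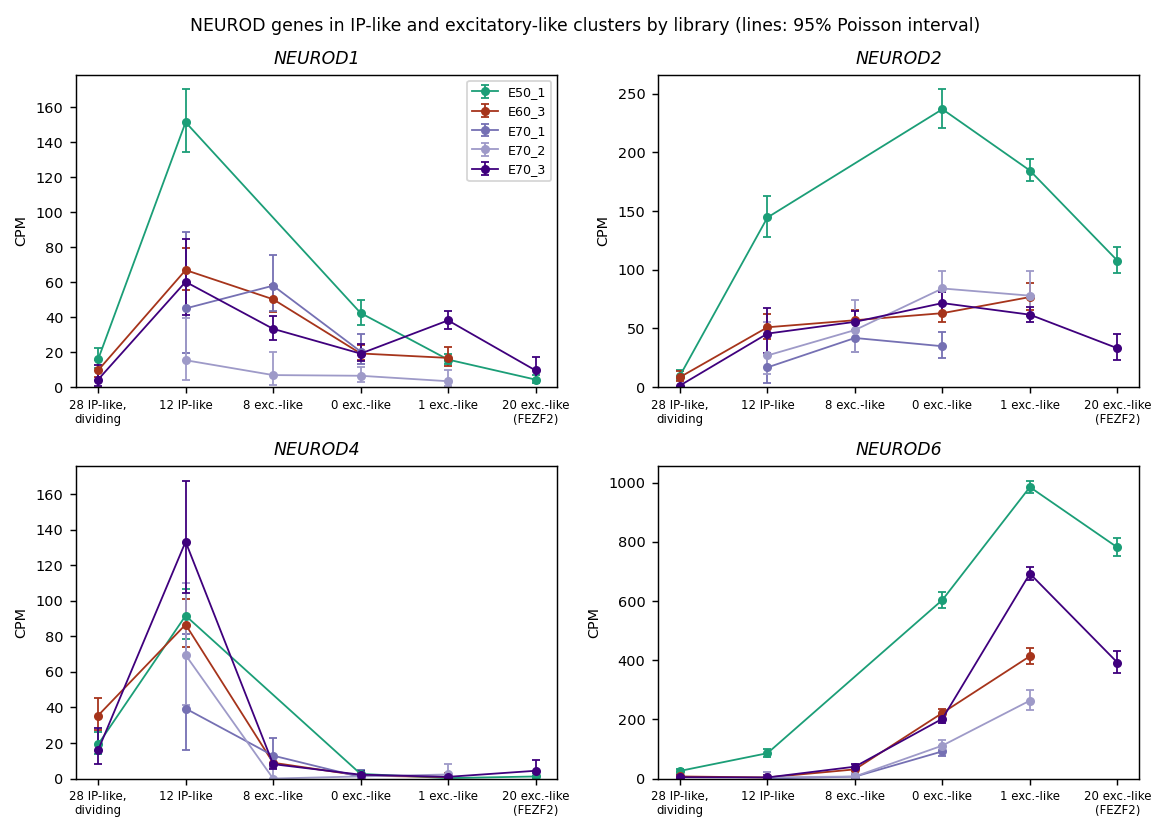
CPM of each NEUROD gene in the IP-like clusters 28 and 12 and the excitatory-like clusters 8, 0, 1 and 20, with 1 line per whole cell library and exact 95% Poisson intervals. Clusters with under 20 cells in a library are left out, so the line of E50_1 passes over cluster 8. NEUROD4 was highest in cluster 12 in every library, as was NEUROD1 in every library but E70_1, and NEUROD6 was highest in cluster 1 in the 4 libraries that held it.

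Outside the cortical lineage, NEUROD1 was at 388, 365 and 131 CPM in the granule-like cells of E50_1, E60_1 and E60_2, the classical site of this gene in the cerebellum. NEUROD2 in the same cells was at 65.9 CPM in E50_1, 5.67 CPM (7 UMIs) in E60_1 and 0 UMIs in E60_2. NEUROD4 was at 1.98, 0.809 and 62.3 CPM, of which the last rested on 10 UMIs in 6 of 30 cells. Granule-like cells were named from ZIC genes, PAX6, RELN and CBLN1, among others.

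Photoreceptor or pineal-like cells, named from RCVRN, AIPL1 and other genes of light-sensing cells, held NEUROD1 at 79.7 CPM in E50_1, 110 CPM in E70_1 and 311 CPM in E70_3. NEUROD4 was at 63.8, 38.9 and 112 CPM in the same cells. Both genes were highest in E70_3. NEUROD2 was at 3.36, 2.72 and 8.59 CPM, from 3 to 6 UMIs each, and NEUROD6 at 18.5, 1.81 and 7.16 CPM. LHX9 neuron-like cells of E50_1 held 17.7 CPM of NEUROD4 (74 UMIs) and 15.3 CPM of NEUROD1, against a background of 2.51 and 10.7 CPM (0.772 and 3.09 CPM without cluster 35). The unnamed cluster 19, led by PCP4 and CALB1, held NEUROD1 at 60.6 CPM in E50_1, 80.2 CPM in E60_1 and 17.8 CPM in E60_2.

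With each cell drawn down to 1000 UMIs, the share of cells with a NEUROD6 UMI was 26.8% (25.6 to 28%, exact Clopper-Pearson 95% interval) of excitatory-like, 2.33% of IP-like and 0.313% of interneuron-like cells, against 0.429% of microglia-like cells. For NEUROD2 the shares were 9.16%, 5.83%, 0.104% and 0.171%, and for NEUROD1 2.28%, 5.93%, 0.313% and 0.471%. For NEUROD4 they were 0.292%, 6.61% and 0.104%, with 0 of 2333 microglia-like cells, which allows up to 0.129%. Without cluster 35 the microglia-like shares were 0.0955% for NEUROD1, 0.191% for NEUROD2 and 0.0955% for NEUROD6, and the intervals of the interneuron-like shares overlapped those of the microglia-like shares either way. The pooled shares mix libraries. Of the 24 IP-like cells with a NEUROD6 UMI, 22 were from E50_1, where the share was 5.10% against 3.88% of microglia-like cells. In the other libraries it was 2 of 598 IP-like cells (0.334%). At full depth the shares with a NEUROD6 UMI were 60.7% of excitatory-like cells (median of 7405 UMIs) and 2.01% of microglia-like cells (median of 5092 UMIs). Drawing down left out 79 excitatory-like, 12 interneuron-like and 305 microglia-like cells. By library the share for NEUROD6 in excitatory-like cells was 55.2% in E50_1, 14.5% in E60_3, and between 5.11% (E70_1) and 18.2% (E70_3) in the E70 whole cells.

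At full depth, at least 1 member was detected in 75.3% of the excitatory-like cells, 59.0% of the IP-like cells, 70.4% of the granule-like cells and 49.1% of the photoreceptor or pineal-like cells, against 6.80% of the interneuron-like cells and 3.87% of the microglia-like cells. All 4 members were found in 10 excitatory-like and 7 IP-like cells. At 1000 UMIs per cell, 163 of the 1667 excitatory-like cells of E50_1 held both NEUROD2 and NEUROD6 (9.78%), close to the product of their single shares (9.27%). In E70_3 it was 16 of 1529 cells (1.05%, with a product of 1.15%). Outside this class the same pair was found in 7 of 431 IP-like cells of E50_1 (1.62%, with a product of 0.509%). In the granule-like cells of E50_1 it was 0 of 209 cells (with a product of 0.403%). In photoreceptor or pineal-like cells NEUROD1 and NEUROD4 were found together in 7 of 281 cells (2.49%, with a product of 0.689%), 2 of them in E50_1 and 5 in E70_3.

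Over the 53 clusters, NEUROD2 and NEUROD6 had the highest correlation with each other of all genes with at least 100 UMIs (Pearson's r of log2(CPM + 1) = 0.87). The clusters share libraries and depth, so this describes the clusters only. After NEUROD2, the genes most like NEUROD6 were NSG2, ANKRD34A, ADCYAP1 and SYT4 (r = 0.80 to 0.81). Most like NEUROD2, after NEUROD6, were ISLR2, SSTR2, SCRT2 and NPAS4 (r = 0.77 to 0.81), of which SSTR2 was a marker used to name the IP-like class. Most like NEUROD1 were NRN1, SYT4, MGAT5B, SOX11 and DUSP4 (r = 0.72 to 0.81). Most like NEUROD4 were AIPL1, KLHL35, NEUROD1, EOMES and LY6G6F (r = 0.67 to 0.72), of which AIPL1 and EOMES were markers used to name classes. NEUROD4 and NEUROD6 were the least alike of the members (r = 0.38).

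Of 37 other genes of the NEUROD pathway looked at, 28 were not markers used to name classes. Of these, 16 were tested between excitatory-like and IP-like cells by edgeR with the library as a block, and 4 were higher and 7 lower in excitatory-like cells, where 25.9% of all genes were called (1758 higher and 2115 lower). Their median log2 fold change was -0.23, against 0.02 over all genes tested. Among the antagonists of bHLH factors that were not markers, 3 of 5 were lower, namely ID4 at -2.21, ID1 at -2.10 and ID3 at -2.74, while ID2 (0.52, adjusted p = 0.0727) and REST (-0.07, adjusted p = 0.692) did not pass. ID proteins bind E proteins and keep them from pairing with factors such as NEUROD. HES1, HES6, EOMES, PAX6, TBR1 and BCL11B were markers used to name classes and are not counted. Among the E protein partners TCF4 was higher in excitatory-like cells (0.59, adjusted p = 0.00144), and TCF3 (-0.80, adjusted p = 0.00347) and TCF12 (-0.53, adjusted p = 0.0174) were lower.

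Among genes of the postmitotic neuron that were not markers, STMN2 (3.45), ZBTB18 (0.96) and DCX (0.66) were higher in excitatory-like than in IP-like cells and NFIA (-2.03) and NFIB (-0.39) were lower (log2 fold changes, adjusted p-values of 0.0297 or less by edgeR). ELAVL4 and RBFOX3 did not pass. The upstream proneural factor NEUROG2 was found with 2 UMIs in all IP-like cells and 4 in all excitatory-like cells. NEUROG1 and INSM1 had 0 UMIs in IP-like cells. Between excitatory-like and interneuron-like cells 2 of 15 tested genes that were not markers were higher and 3 lower, where 9.62% of all genes were called. Between IP-like and interneuron-like cells 7 of 16 were higher and 4 lower, where 25.9% were called. Between E70 and E60 whole cells 0 of 17 passed by edgeR, as did 0% of all genes.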

How the data were processed

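The authors deposited UMI counts per gene and cell for 10 libraries, made with 10X Genomics version 2 chemistry and, per the submitters' processing notes, Cell Ranger and the Sscrofa 11.1 genome. Counts were summed per library, class or cluster and given as CPM with exact 95% Poisson intervals. A replicate is a library: p-values measure the spread between libraries, some of which pool brains. Intervals and limits at 0 (3 counts) cover counting error only.

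Cells were scaled to 10000 UMIs, merged by the steps of FastMNN on 3000 variable genes and 50 principal components, and clustered by Louvain at a resolution of 1.6 (igraph 0.11.9, scikit-learn 1.9.0, Python 3.11.15), with the 128 member, marker and pathway genes found in the files left out. A cluster was named by the marker list with the highest mean z of at least 0.5 and at least 3 markers above 10 CPM. Clusters led by markers of another class stayed unnamed, as did 1 cluster set aside by hand after its leading genes were seen. Doublets were not removed. E70 was compared with E60 by edgeR 4.0.16 (R 4.3.3, quasi-likelihood test, TMM, filterByExpr), with DESeq2 1.42.0 as an alternative. The study tests cells with a Wilcoxon test, whereas libraries were tested here. The count model was tested on simulated data. Classes were compared within libraries with at least 20 cells of each, by an exact sign-flip test on log2(CPM + 1) with Benjamini-Hochberg adjustment over 12 tests. Adjusted p-values under 0.05 passed.

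The text names the 4 members, a list of pathway genes, and for each member the 5 genes most correlated with it over clusters. Members and lists were chosen with earlier results of these data known. Sequences, gene models and coordinates are from RefSeq on Sscrofa11.1, while the counts rest on the authors' own annotation. The sequencing pools are those of the study's supplement. Brain numbers are those of the labels, and for E70_1 and E70_3 the supplement gives other numbers. Values of some marker and pathway genes are not reported here.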

Additional observations from a re-analysis of the deposited data

How the results depend on the processing

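The counts of genes called between E70 and E60 depended on the processing. Against 0 by edgeR, DESeq2 called 2907, and leaving out 1 library gave 0 to 5902, with 5902 without E60_3 and 1570 without E70_3. With libraries of the same number as a replicate block edgeR called 0 genes, as it did with no filter and without erythroid-like, vascular-like and fibroblast-like cells. Libraries numbered 1 shared a sequencing pool, as did those numbered 3, but not those numbered 2, and the deviations of same-numbered libraries from their stage mean correlated at -0.17, 0.03 and -0.13, so that pairing by number was not taken as established. With the block the log2 fold changes were 0.41 for NEUROD1, 3.85 for NEUROD2, 2.13 for NEUROD4 and 3.34 for NEUROD6, and none passed (edgeR adjusted p of 0.275 or more). Over 11 alternatives the log2 fold change ranged from 0.14 to 1.1 for NEUROD1, -0.0069 to 5.77 for NEUROD2, -0.43 to 3.24 for NEUROD4 and 0.33 to 5.68 for NEUROD6. The values of -0.0069 for NEUROD2 and -0.43 for NEUROD4 are those without both E60_1 and E60_2.

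The difference of NEUROD4 between excitatory-like and interneuron-like cells changed sign to 0.28 with at least 50 cells a class, 0.32 with no batch correction and 0.34 with each library clustered on its own. The cause was not tested. The other 11 class differences kept their sign wherever they could be computed, although their size moved, as given above for NEUROD1 and NEUROD2 between excitatory-like and IP-like cells. With no batch correction, fewer than 2 libraries held 20 cells of both classes for the comparisons with IP-like cells, which gave no value. With edgeR and the library as a block 9 differences passed that did not pass by the sign-flip test: between excitatory-like and IP-like cells 1.38 for NEUROD2, -4.42 for NEUROD4 and 4.97 for NEUROD6, between excitatory-like and interneuron-like cells 1.6 for NEUROD1, 3.26 for NEUROD2 and 4.79 for NEUROD6, and between IP-like and interneuron-like cells 1.81 for NEUROD1, 1.73 for NEUROD2 and 3.85 for NEUROD4. A fit of E70 against E60 within a class was not run, since no neuronal class had 20 cells in at least 2 libraries of both stages. Depth limits NEUROD4 in neurons and all 4 genes in the adult nuclei, where 1 to 12 UMIs were found.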
